A study of Homo sapiens with 6 samples.

Results

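The 8 genes described here encode the core of the MHC class I antigen presentation pathway. They are the heavy chains HLA-B, HLA-C and HLA-E, the light chain B2M, the peptide transporter subunits TAP1 and TAP2, the chaperone TAPBP and the transcriptional activator NLRC5. They were taken by gene symbol, and all 8 were found among the 58735 genes listed. RNA-seq was performed on HCT116 cells, a human colorectal carcinoma line. Of the 6 libraries, 3 came from control cells (CTR, genotype WT in the labels) and 3 from cells transfected with miR-8485 mimics. These are short synthetic RNAs, here of 17 bases by the methods, and their sequence was not compared with that of the annotated miRNA. By the methods, the mimics were used at 50 nM with DMRIE-C reagent and cells were generally collected 48 h later. Both groups share the same line, and neither the labels nor the methods name an interferon treatment or the agent given to CTR cells. The methods describe the replicates as independent biological ones.

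MHC class I molecules show peptides made inside the cell to CD8 T cells. Peptides cut by the proteasome enter the endoplasmic reticulum through the TAP1-TAP2 transporter, and tapasin, the product of TAPBP, holds an empty heavy chain with B2M next to the transporter until a fitting peptide is bound. NLRC5 is recruited to the promoters of most of these genes by the RFX, CREB/ATF and NF-Y factors, which bind an X box and a Y box, while interferon and NF-kappaB act through further elements. Tumor cells, colorectal ones included, can escape T cells by losing parts of this pathway.

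The libraries held 17473874 to 18480047 fragments on listed genes, with the fragments recovered from the deposited FPKM (fragments scaled to gene length and library depth). Libraries of the same group were compared by a chi-square per gene on these fragments, which is larger where libraries differ more. It was 10.5 and 8.46 for CTR replicate 1 against CTR replicates 2 and 3, and 2.75 to 3.87 for the other pairs. Of the 9 colorectal epithelial markers, 7 reached 1 FPKM, while CDX1 and VIL1 lay near 0. EPCAM and CDH1 overlapped between the groups, KRT8, KRT18, KRT19 and CLDN4 had log2 fold changes of -0.62, -0.97, -0.58 and -0.39, and CDX2 had 0.81. The summed level of the 9 was 2700 to 2931 FPKM in CTR and 1818 to 1907 FPKM in miR-8485. The 8 leukocyte markers, with CD3E at 0 and HLA-DRA alone above 1 FPKM, summed to at most 3.11 FPKM in any library and the 3 endothelial markers to at most 0.240 FPKM. The 6 fibroblast markers summed to 4.30 to 4.53 FPKM in CTR and 6.36 to 6.53 FPKM in miR-8485, nearly all of it COL1A1, with DCN at 0. The part of these shifts in the results below was not tested. In bulk libraries, fewer cells of a type and less RNA per cell cannot be told apart.

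The sequences that bear on these genes are those of the mimic and of the promoters through which class I genes are controlled. The mimic is shown with its seed, bases 2 to 8, in capitals, because a miRNA mainly recognizes mRNAs through this part.
miR-8485 mimic: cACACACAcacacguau
The seed pairs with TGTGTGT. Among the 8 genes, NLRC5 alone held a copy of TGTGTGT in its longest annotated 3′ UTR (GENCODE release 44, GRCh38). The copy starts at base 519 of 999, on the plus strand at chr16:57083036-57083058, and is shown with 8 bases on each side and the seed match in capitals.
NLRC5 site: ttatagatTGTGTGTatggagca
The 3′ UTRs of HLA-B, HLA-C, HLA-E, B2M, TAP1, TAP2 and TAPBP, from 373 bases in TAP1 to 3494 bases in TAP2, held 0 copies. The same was found in the transcripts tagged as canonical. Of the 10686 tested genes with a 3′ UTR, 30.2% held at least 1 copy in the longest and 28.9% in the canonical transcript. A match describes letters only, and which 3′ UTRs the cells use was not measured.

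Promoter sequences (RefSeq, GRCh38.p14, 250 bases before to 50 bases after the start) were matched for 6 of the 8 genes, HLA-B, HLA-C, B2M, TAP1, TAP2 and TAPBP. Both strands were searched for the Y box CTGATTGG, for the interferon-stimulated response element (GAAA, any 2 bases, GAAA) and for the kappa B consensus. The stretches before the start that hold the matches are given 5′ to 3′ on the strand of the gene, with the matches in capitals, to show which elements the genes share.
HLA-B, minus strand, chr6:31357218-31357366: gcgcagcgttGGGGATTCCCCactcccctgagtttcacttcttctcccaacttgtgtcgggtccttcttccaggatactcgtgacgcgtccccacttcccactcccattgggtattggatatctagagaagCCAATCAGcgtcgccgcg
HLA-C, minus strand, chr6:31272131-31272274: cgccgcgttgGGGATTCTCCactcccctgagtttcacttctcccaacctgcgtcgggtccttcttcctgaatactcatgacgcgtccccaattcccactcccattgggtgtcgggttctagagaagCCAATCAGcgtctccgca
B2M, plus strand, chr15:44711363-44711482: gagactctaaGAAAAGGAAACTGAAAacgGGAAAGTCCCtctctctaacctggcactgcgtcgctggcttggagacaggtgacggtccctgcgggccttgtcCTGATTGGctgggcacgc
TAPBP, minus strand, chr6:33314079-33314144: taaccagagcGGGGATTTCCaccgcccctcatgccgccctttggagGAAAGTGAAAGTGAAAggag
TAP2, minus strand, chr6:32838778-32838807: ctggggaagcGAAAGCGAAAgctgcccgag
TAP1, minus strand, chr6:32853757-32853848: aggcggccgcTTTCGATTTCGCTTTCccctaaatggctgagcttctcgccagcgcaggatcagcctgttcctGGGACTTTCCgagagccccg
The Y box lay in HLA-B, HLA-C and B2M, that is 3 of 6, with its first base 56, 56 and 52 bases before the start. In HLA-B and HLA-C it reads CCAATCAG, the same word on the opposite strand. The interferon element lay in 4 of 6, TAP1, TAP2, TAPBP and B2M, where matches overlapped in TAP1, TAPBP and B2M. Only this pattern was searched, so a variant of the element, also in HLA-B or HLA-C, would have been missed. The kappa B consensus lay in 5 of 6, all but TAP2, with overlapping matches in HLA-B. Of all 35116 promoter windows of this length, 3.97% held the Y box, 3.57% the interferon element and 5.91% the kappa B consensus.

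The comparison asks how the mimic changes the transcriptome of HCT116 cells. For the 12349 genes that averaged at least 1 FPKM, limma was run on log2(FPKM + 0.1). The p-values were adjusted over all of these genes (Benjamini-Hochberg), and genes under 0.05 were called. Of the 8 genes, 7 passed this filter, and NLRC5, below it, was taken from the same fit of all 31768 genes above 0. In the miR-8485 libraries TAPBP and HLA-E fell, HLA-B rose, and HLA-C, B2M, TAP1, TAP2 and NLRC5 did not pass the test. Of the 3 called changes, the fall of TAPBP was the largest, from 22.4 to 14.0 FPKM. Of the 7 genes in this fit, 3 were called, beside 59.6% of all tested genes, 29.1% as higher and 30.5% as lower. For 4 of the 8 genes (HLA-B, HLA-E, TAPBP and NLRC5) the groups of libraries did not overlap, against 66.5% of the tested genes. Among the 7 genes the median log2 fold change was -0.02, beside -0.0041 for all tested genes, and the median absolute log2 fold change of all tested genes was 0.33. When rescaled to TPM, which sets every library to the same total per length, the median of all tested genes moved to -0.12 and the calls from 3593 higher and 3769 lower to 2613 and 4725.

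**Figure D1:**
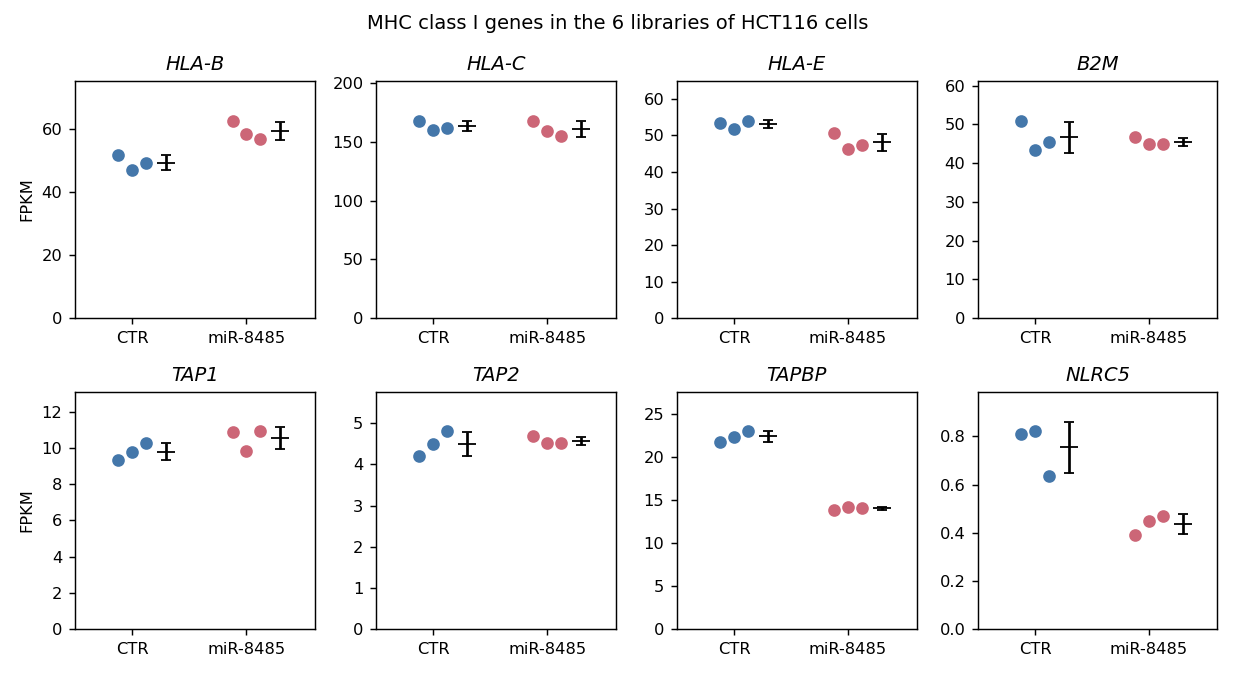
FPKM (vertical axes, from 0, on a scale of their own for each gene) of the 8 genes in the 3 CTR libraries (blue) and the 3 miR-8485 libraries (red), with the mean and SD of each group in black. TAPBP lies at 21.8 to 23.0 FPKM in CTR and 13.9 to 14.2 FPKM in miR-8485, while HLA-C, B2M and TAP2 overlap between the groups.

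HLA-B, HLA-C and HLA-E encode the heavy chains that hold the peptide. HLA-B and HLA-C are highly variable chains read by T cells, and HLA-C is also a main ligand of the KIR receptors of NK cells. HLA-E varies little and carries peptides cut from the leaders of other class I chains, which inhibit NK cells through CD94-NKG2A. HLA-C had the highest FPKM of the 8 genes in every library. HLA-B, HLA-E and B2M came next and lay close together, with HLA-E highest in CTR and HLA-B highest in miR-8485, followed by TAPBP, TAP1, TAP2 and NLRC5 without overlap. These levels are per gene length as given in the file, 6079 bases for B2M, 3051 for HLA-B and 2975 for HLA-E. B2M had more fragments than HLA-B and HLA-E in every library, in CTR replicate 1 5586 against 2849 and 2870. The order of genes in FPKM therefore depends on these lengths and need not be that of their transcripts. A further limit is that the heavy chain genes are similar in sequence. Fragments matching several of them may have been dropped or split in counting.

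HLA-B, on chromosome 6, minus strand, at 31269491 to 31357188 in the file (hg38), had 51.8, 47.0 and 49.2 FPKM in CTR replicates 1 to 3. In miR-8485 replicates 1 to 3 it had 62.8, 58.6 and 57.0 FPKM. Every miR-8485 library was above every CTR library. The means were 49.3 ± 2.40 FPKM (SD, n = 3) and 59.5 ± 2.98 FPKM (SD, n = 3), so the mean rose by 20.6%. In limma this was 0.27 on the log2 scale (adjusted p = 0.0042, standard error 0.06). These values rest on 2593 to 2849 fragments per CTR library and 3235 to 3441 per miR-8485 library. On the TPM scale, the log2 fold change was 0.15 and missed the threshold (limma, adjusted p = 0.0675). The file places HLA-B over a span that reaches into HLA-C, with 2640 bases in common from 31269491 to 31272130, and the handling of fragments in this stretch is not given in the sources used here.

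HLA-C, on chromosome 6, minus strand, at 31268749 to 31272130, had 168, 160 and 162 FPKM in the CTR libraries and 168, 160 and 155 FPKM in the miR-8485 libraries. The groups overlapped, with miR-8485 replicate 1 inside the CTR range and the other two miR-8485 libraries just under or below it. The log2 fold change was -0.02, with a 95% confidence interval of -0.13 to 0.08 (adjusted p = 0.689 in limma). HLA-C had 7233 to 7596 fragments per library. With the trend against gene length removed, the log2 fold change of HLA-C was -0.11 and past the threshold (adjusted p = 0.032 in limma).

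HLA-E, on chromosome 6, plus strand, at 30489467 to 30494205, had 53.5, 51.8 and 54.1 FPKM in CTR and 50.8, 46.2 and 47.4 FPKM in miR-8485. The groups did not overlap, but the highest miR-8485 library came close to the lowest CTR library. The CTR mean was 53.1 ± 1.15 FPKM and the miR-8485 mean 48.1 ± 2.36 FPKM (SD, n = 3 each). In limma the log2 fold change was -0.14 (adjusted p = 0.0344, standard error 0.05), and on the TPM scale -0.26. This call is near the threshold and did not hold in most fits with a library left out, whichever group the library came from. It was lost without CTR replicate 1 (adjusted p = 0.057 in limma), 2 (0.0501) or 3 (0.0991) and without miR-8485 replicate 2 (0.12) or 3 (0.103), and also in the fit of all genes above 0 (0.0686) and in limma without the variance trend (0.0697). The direction was the same in each of these fits.

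Summed over HLA-B, HLA-C and HLA-E, the heavy chain fragments came to 762, 709 and 724 per 1000000 fragments in the CTR libraries. The miR-8485 libraries had 771, 731 and 725 per 1000000 fragments. The 2 ranges overlapped, while the share of HLA-B in this sum was higher in every miR-8485 library. HLA-B took 21.4%, 20.5% and 21.0% of the summed fragments in CTR and between 24.7% and 25.1% in miR-8485. HLA-E took a median of 22.1% in CTR and 19.8% in miR-8485. These shares were not tested.

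B2M, the light chain shared by all class I molecules, is on chromosome 15, plus strand, from 44711487 to 44718877. It had 51.0, 43.4 and 45.5 FPKM in CTR and 46.7, 44.9 and 44.9 FPKM in miR-8485. The CTR libraries spread more widely than the miR-8485 libraries and enclosed them. Only CTR replicate 1 lay above the miR-8485 range. The log2 fold change was -0.03 with a 95% confidence interval of -0.18 to 0.12 (adjusted p = 0.684 in limma). It was not past the threshold in any alternative that was run, where it lay between -0.15 on the TPM scale and 0.10 with the trend against GC content removed.

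TAP1 and TAP2 form the transporter that pumps cytosolic peptides into the endoplasmic reticulum. TAP1, on chromosome 6, minus strand, at 32845209 to 32853978, had 9.33, 9.79 and 10.3 FPKM in CTR and 10.9, 9.87 and 10.9 FPKM in miR-8485. The groups overlapped, since miR-8485 replicate 2 lay below the highest CTR library. The log2 fold change was 0.11, with a 95% confidence interval of -0.04 to 0.25 (adjusted p = 0.174 in limma). PSMB9 overlaps TAP1 on the other strand over its whole length, at 1.34 FPKM or less, and whether strand was used in counting is not given in the sources used here.

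TAP2, on chromosome 6, minus strand, at 32821833 to 32838780, had 4.21, 4.49 and 4.81 FPKM in CTR and 4.69, 4.53 and 4.52 FPKM in miR-8485, so the CTR libraries enclosed the others. The log2 fold change was 0.03 with a 95% confidence interval of -0.13 to 0.18 (adjusted p = 0.768 in limma). TAP2 had the lower level of the transporter pair in all 6 libraries, at 485 to 556 fragments per library.

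TAPBP encodes tapasin, which bridges the transporter and the empty heavy chain and edits the bound peptides. The gene lies on chromosome 6, minus strand, at 33299694 to 33314387. It had 21.8, 22.4 and 23.0 FPKM in CTR and 13.9, 14.2 and 14.1 FPKM in miR-8485. The 2 groups lay far apart compared with the spread within them, at 22.4 ± 0.599 FPKM (SD, n = 3) and 14.0 ± 0.155 FPKM (SD, n = 3). The mean fell by 37.3%. In limma the log2 fold change was -0.67 (adjusted p = 1.8e-05, standard error 0.04). Among all tested genes, 10.3% had a lower log2 fold change. The call held in all 17 alternatives that were run, with log2 fold changes between -0.79 and -0.64. The 3′ UTR of TAPBP, of 2069 bases, held 0 copies of the seed match.

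NLRC5, on chromosome 16, plus strand, at 56989485 to 57083531, was the lowest of the 8 genes. It had 0.810, 0.821 and 0.633 FPKM in CTR and 0.391, 0.446 and 0.471 FPKM in miR-8485, that is 181, 184 and 142 fragments against 87, 100 and 111. The miR-8485 libraries all lay under the lowest CTR library, and the means were 0.755 ± 0.105 FPKM (SD, n = 3) and 0.436 ± 0.0407 FPKM (SD, n = 3). In the fit of all genes above 0, in which 11.3% of the genes were called as lower, the log2 fold change was -0.67 (standard error 0.23) and missed the threshold (limma, adjusted p = 0.0922). Run on the recovered fragments, voom (the count version of limma) did call it, with a log2 fold change of -0.79 (adjusted p = 0.00089), and so did limma without the variance trend (adjusted p = 0.0244). Leaving out 1 library at a time gave log2 fold changes of -0.78 to -0.61, with an adjusted p from 0.0644 to 0.156. A pseudocount of 1, which is larger than the FPKM of this gene, brought the log2 fold change to -0.29.

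**Figure D2:**
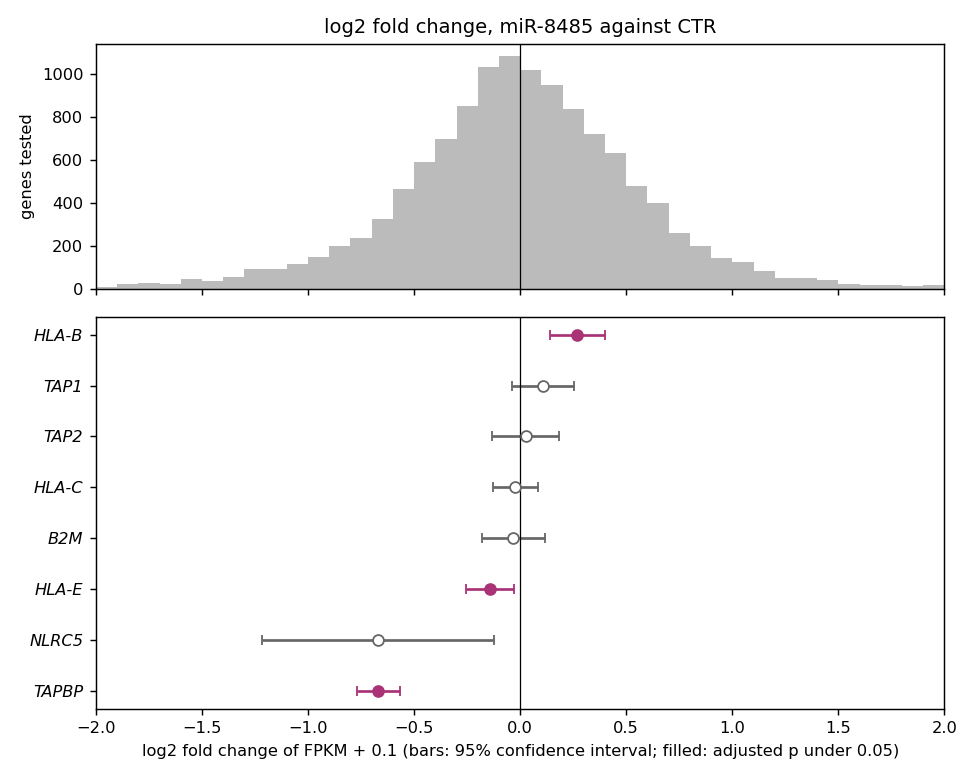
Log2 fold change of miR-8485 against CTR (horizontal axis) for the 8 genes, with 95% confidence intervals and filled points where the adjusted p was under 0.05, below the histogram of all 12349 tested genes in bins of 0.1. NLRC5 comes from the fit of all genes above 0, and TAPBP at -0.67 and NLRC5 at -0.67 lie to the left of the other members, which lie between -0.14 and 0.27.

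Ratios of 2 genes within a library do not depend on the scaling between libraries. Their size does depend on the gene lengths in the file, which are the same for both groups. The ratio of HLA-B to HLA-C was 0.308, 0.293 and 0.305 in CTR and 0.374, 0.368 and 0.368 in miR-8485. The 2 ranges did not overlap. The ratio of TAPBP to TAP1 was 2.34, 2.28 and 2.24 in CTR and 1.27, 1.44 and 1.28 in miR-8485, again without overlap. TAP1 to TAP2 lay between 2.14 and 2.22 in CTR and between 2.18 and 2.42 in miR-8485. HLA-C to B2M lay between 3.30 and 3.69 in CTR and between 3.45 and 3.60 in miR-8485, and both of these ratios overlapped. In two-sided exact permutation tests of the 4 ratios, the first 2 had p = 0.1, the smallest that 3 libraries against 3 allow, and the others p = 0.2 and p = 0.8. The adjusted values over the 4 were 0.2, 0.2, 0.267 and 0.8. The ratios were chosen after the values were seen, and any ratio without overlap gets 0.1 in this test. These p-values therefore add nothing to the ranges.

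**Figure D3:**
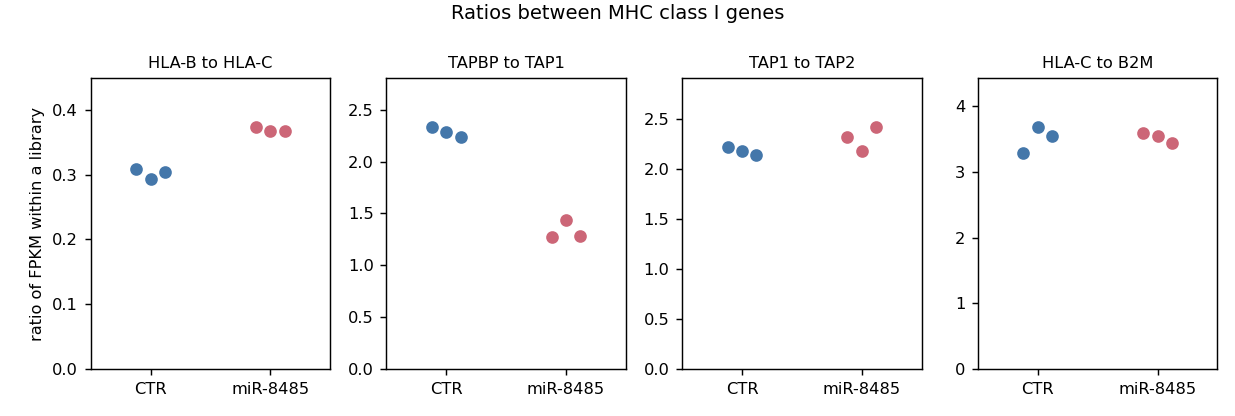
Ratio of the FPKM of 2 genes within each library (vertical axes, from 0), with 3 CTR libraries in blue and 3 miR-8485 libraries in red. HLA-B to HLA-C is higher and TAPBP to TAP1 lower in every miR-8485 library, while the other 2 ratios overlap.

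The genes around the core were described with 9 lists of 89 genes in all, of which 76 passed the filter. Of these, 11 were upregulated and 39 downregulated (9 and 47 on the TPM scale), 26 did not pass the test, and the median log2 fold change was -0.21. Over all tested genes, 29.1% were called higher and 30.5% lower, and the TPM scale gave 2613 higher and 4725 lower. All 7 tested genes of the list of endoplasmic reticulum chaperones that assist folding and peptide loading were downregulated, beside 30.5% of all tested genes, with a median of -0.52. HSPA5, the Hsp70 of this compartment, fell from 249 ± 6.46 to 135 ± 2.87 FPKM (SD, n = 3), or -0.89 on the log2 scale (adjusted p = 4.9e-06 in limma). HSP90B1 and P4HB, a disulfide isomerase, had log2 fold changes of -0.72 and -0.52. PDIA3, the disulfide isomerase of the peptide loading complex, fell from 106 ± 3.91 to 70.9 ± 1.75 FPKM (SD, n = 3), that is a log2 change of -0.58 (adjusted p = 3.4e-05). CALR and CANX, the lectin chaperones of class I heavy chains, were singled out after their values were seen, and their log2 fold changes were -0.43 and -0.33 (adjusted p = 2.6e-04 and 2.2e-04). In this list TAPBPL, a relative of tapasin, lay below the filter at 0.243 FPKM in CTR.

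The lists for peptide supply held genes called in either direction, at shares that are to be read against the 59.6% called among all tested genes. Of the 4 tested immunoproteasome genes, PSME1 and PSME2, the subunits of the PA28 activator, were upregulated with log2 fold changes of 0.61 and 0.33 (adjusted p = 1.9e-04 and 0.0026 in limma). PSME1 went from 49.4 ± 4.38 to 75.3 ± 1.28 FPKM (SD, n = 3). PSMB9 and PSMB10, which encode catalytic subunits, did not pass the test. PSMB8 lay below the filter with a mean of 0.0739 FPKM in CTR and 0.0792 FPKM in miR-8485. Among the 5 constitutive proteasome counterparts, PSME4, which encodes the PA200 activator, was downregulated with -0.86 and PSMB6 and PSMB7 with -0.19 each, and PSMB5 and PSME3 did not pass the test. Of the 7 tested peptidases of the trimming list, THOP1 and LAP3 were upregulated with 0.61 and 0.53, LNPEP and NPEPPS were downregulated with -1.05 and -0.28, and 3 did not pass the test. The median of this list was -0.05. ERAP1 and ERAP2, which trim peptides inside the endoplasmic reticulum, lay below the filter.

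Of the 14 tested genes of the list of factors that act on class I promoters, which also holds chromatin regulators, 2 were upregulated and 6 downregulated, with a median of -0.11. This count is near the 59.6% called among all tested genes. RFX5, the DNA-binding subunit of the RFX complex, rose from 8.59 ± 0.654 to 13.3 ± 0.954 FPKM (SD, n = 3), that is a log2 change of 0.63 (adjusted p = 3.1e-04 in limma). The other upregulated gene was RFXANK, singled out after its value was seen, with 0.28. The NF-Y genes NFYB and NFYC, also singled out in this way, were downregulated with -0.35 and -0.32 (adjusted p = 0.0081 and 0.0011 in limma). RFXAP and NFYA did not pass the test. ATF1, a member of the CREB family, fell from 6.78 ± 0.612 to 1.98 ± 0.308 FPKM (SD, n = 3), that is a log2 change of -1.73 (adjusted p = 2.4e-05). EZH2, the methyltransferase of Polycomb repressive complex 2, and IRF2 were downregulated with -0.62 and -0.42. In the list of the interferon gamma receptor and its signalling, 2 of 12 tested genes were upregulated and 7 downregulated, beside 29.1% and 30.5% of all tested genes, with a median of -0.37. SOCS1, SOCS3 and PIAS1, which restrain this signalling, were downregulated with -1.10, -0.55 and -0.53, and JAK2, a kinase of the receptor, with -0.49 (adjusted p = 0.0286 in limma).

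Of the 14 genes for turnover of class I molecules at the surface and in the endoplasmic reticulum, 1 was upregulated and 8 were downregulated, with a median of -0.24, beside 29.1% and 30.5% of all tested genes. DERL1, a component of the retrotranslocation machinery, fell from 13.6 ± 0.676 to 6.44 ± 0.151 FPKM (SD, n = 3), that is a log2 change of -1.06 (adjusted p = 7.9e-06 in limma). The ubiquitin ligase gene RNF139 and the protease gene SPPL2A were downregulated with -0.48 and -0.44, while MARCHF9, which encodes a membrane-bound ubiquitin ligase, had a log2 fold change of 0.36. In the list of 12 ligands of NK-cell and checkpoint receptors, 6 of 9 tested genes were downregulated and 0 upregulated, beside 30.5% and 29.1% of all tested genes, and the median of -0.71 was the lowest of the 9 lists. RAET1L and ULBP2 had log2 fold changes of -1.57 and -1.26. MICA went from 23.3 ± 2.09 to 12.8 ± 0.632 FPKM and MICB from 21.3 ± 1.41 to 12.6 ± 1.53 FPKM (SD, n = 3), with log2 fold changes of -0.86 and -0.76. These 4 genes encode ligands of the NKG2D receptor, and they have close relatives with which fragments could have been split. Among 8 other HLA and class I like genes, 2 of 4 tested were upregulated, beside 29.1% of all tested genes. MR1, which presents vitamin B metabolites, rose from 1.33 ± 0.206 to 2.93 ± 0.184 FPKM (SD, n = 3), that is a log2 change of 1.09 (adjusted p = 3.1e-04 in limma), and HFE, a class I like regulator of iron uptake, had 0.48.

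**Figure D4:**
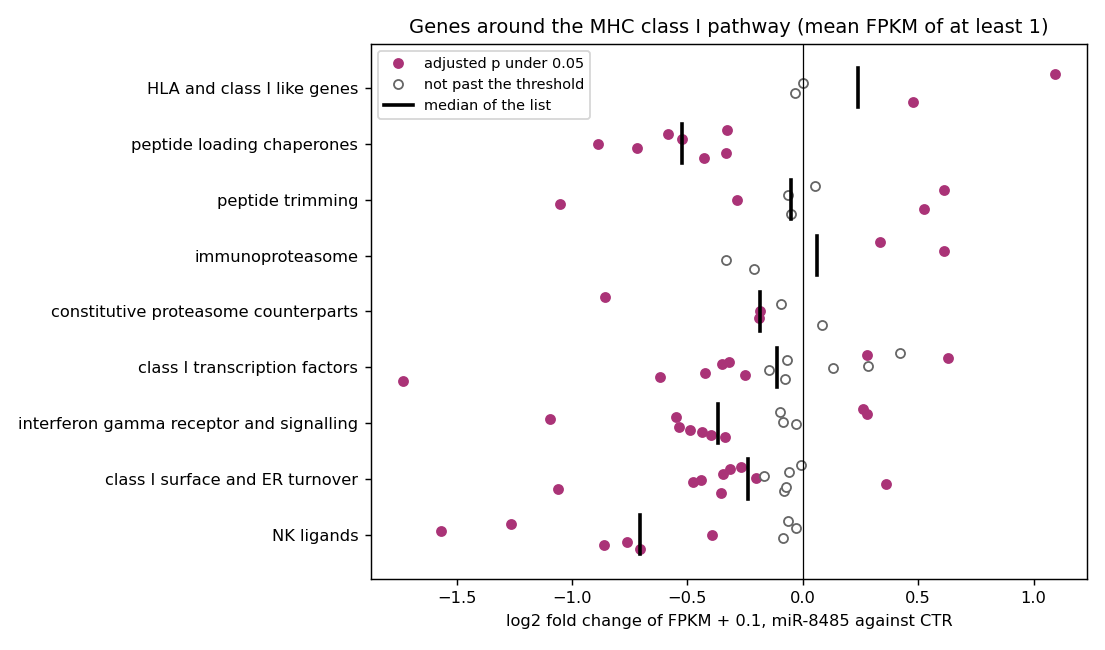
Log2 fold change of miR-8485 against CTR (horizontal axis) for the 76 genes that passed the filter, by list, with filled points for an adjusted p under 0.05 in limma, open points otherwise and a black bar for the median of each list. The endoplasmic reticulum chaperones all lie below 0, with a median of -0.52, and the median of the NK ligands is -0.71.

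The 5 genes whose levels over the 6 libraries were most like the mean profile of the 7 members above the filter were PMF1, NDUFA11, SNORD60, TARBP2 and RNU6-30P, with a Pearson correlation between 0.98 and 0.99. This is a description over 6 libraries that share their groups and totals. Their log2 fold changes were, in this order, -0.04, -0.04, -0.86, -0.0038 and -0.09. The 7 members had no common profile, so the mean averages over unlike genes. Correlations between pairs of them ran from -0.93 (HLA-B with TAPBP) to 0.84 (HLA-E with TAPBP).

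**Figure D5:**
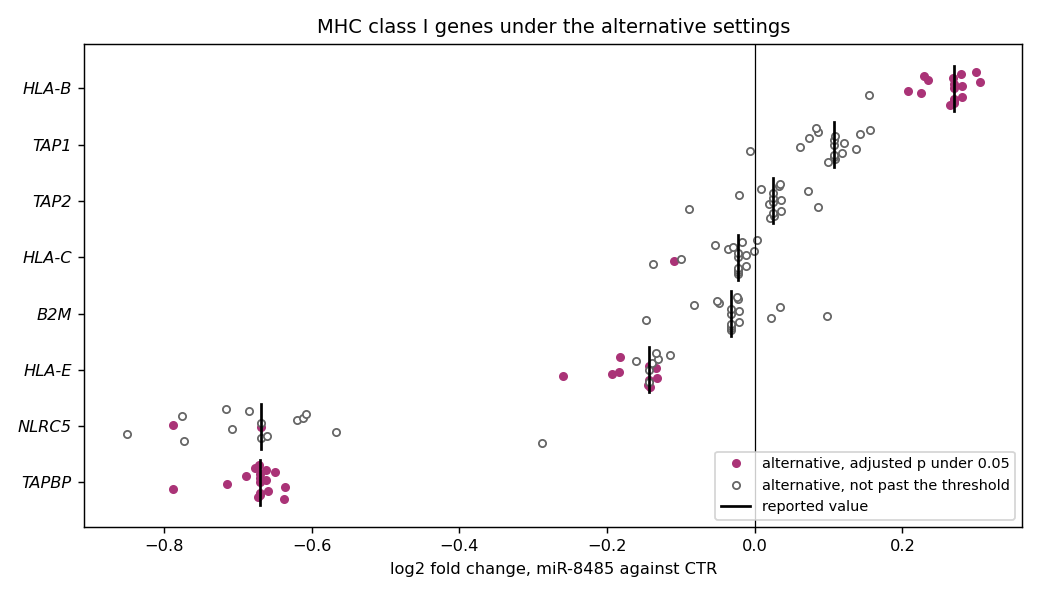
Log2 fold change of miR-8485 against CTR (horizontal axis) of the 8 genes under each alternative setting, with filled points for an adjusted p under 0.05 and a black line at the reported value. All points of TAPBP are filled and lie between -0.79 and -0.64, and those of HLA-E are divided between filled and open.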

How the data were processed

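RNA-seq of 6 libraries of HCT116 cells, 3 per group, was grouped by the sample titles. The authors trimmed reads with fastp, aligned them with HISAT2 (2.0.5) to hg38, counted with featureCounts (1.5.0-p3) and deposited FPKM per gene, without scaling between libraries. The annotation release is not given in the sources used here. In every library 100% of the values above 0 were whole fragments (tolerance 0.1), which gave the depth. p-values measure the spread between these libraries.

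limma 3.58.1 (R 4.3.3) with a variance trend was run two-sided on log2(FPKM + 0.1), which understates changes of low genes, and was tested on simulated data. Ratios used scipy 1.17.1. The authors' own count test was not repeated, and voom on the recovered fragments was the count-based alternative. Alternatives were other pseudocounts, filters and scalings, removal of length or GC trends, no variance trend, voom, a replicate block and each library left out. GC content was added after seeing the data. Genes were named by rule: the 8 members, and per list up to 4 called genes without overlap, by size of change. Outside this rule, CALR, CANX, RFXANK, NFYB and NFYC were named after their values were seen. Other called genes of their lists were left unnamed. Some genes that were not called or lay below the filter were also named. The members and lists were chosen with earlier results of these data known, and the ratios after the values were seen. MARCHF9 was matched by gene ID and the other genes by symbol.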

Additional observations from a re-analysis of the deposited data

How the results depend on the processing

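The number of MHC class I genes called, 3, lay between 2 and 4 in all 17 alternatives. The number of pathway genes called, 50 of 76 tested, stayed within 1.5 times of it. Both are to be read against the 59.6% called among all tested genes, a share that also moved with the setting. Without the filter, 3417 of 31768 genes were called higher and 3598 lower. At a mean of at least 5 FPKM, 2303 of 6878 were called higher and 2417 lower. TAPBP kept its call in all 17 and B2M and TAP1 stayed short of the threshold in all 17, as did TAP2 in the 16 that could be fitted. HLA-B lost its call on the TPM scale only, with a log2 fold change of 0.15, HLA-E in 7 alternatives, and HLA-C gained a call with the gene length trend removed and NLRC5 gained one with voom and without the variance trend. Among the genes that were not called, the sign turned for TAP1 on the TPM scale (-0.01), for TAP2 on the TPM scale (-0.09) and without CTR replicate 1 (-0.02), and for B2M with the length or GC trend removed (0.02 and 0.10) and without CTR replicate 1 (0.03). HLA-C without miR-8485 replicate 3 was at 0.0037. With the replicate block, the MHC class I genes called were again 3 and the log2 fold change of NLRC5 was -0.67 (adjusted p = 0.173 in limma). Libraries with the same number correlated between -0.064 and 0.067 in their deviations from the group means, so the numbers were not taken to pair the samples. The block changed no call among the 8 genes. Neither NLRC5 nor TAP2 was tested at a mean of at least 5 FPKM. NLRC5 had 87 to 184 fragments per library and the other members at least 485, and the part of depth in the calls was not tested.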
